A study of Oryctolagus cuniculus with 134 samples.

Results

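The 30 genes of the DNA replication machinery described here were measured in the aorta and the 4 heart valves of rabbits on chow, cholesterol-rich or lard-rich diets, with and without cardiac irradiation. The genes were chosen by symbol alone, as all entries of the deposited tables named as a numbered MCM, ORC, RFC, GINS, PRIM or RRM gene or as a POLA, POLD or POLE gene. This gave 30 of the 29587 genes. MCMBP has no number after MCM and is counted among the partner genes below. The rule itself uses no expression value, but the set was proposed with earlier results of these data known. They comprise all 6 subunits of the origin recognition complex (ORC1 to ORC6), 5 of the 6 subunits of the replicative helicase (MCM2, MCM3, MCM4, MCM5 and MCM7), the related or associated genes MCM9, MCM10 and MCM3AP, GINS4, the 5 subunits of the clamp loader (RFC1 to RFC5), the polymerase genes POLA1, POLD2, POLD3, POLE, POLE2 and POLE3, PRIM2 of primase, and the ribonucleotide reductase genes RRM1, RRM2 and RRM2B. MCM6, MCM8, GINS1, GINS2, GINS3, POLA2, PRIM1, POLD1, POLD4 and POLE4 were not found by symbol and were not analysed here.

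A cell copies its DNA from many origins. The origin recognition complex binds them and loads the MCM helicase in the G1 phase, and at the start of S phase GINS and other factors turn the loaded helicase into an active one. Polymerase alpha with primase then lays primers, the clamp loader places the PCNA ring on them, polymerases epsilon and delta extend them, and ribonucleotide reductase makes the deoxynucleotides that they use. Many of these genes are transcribed at the G1/S transition by E2F factors, so their RNA is abundant in cycling cells and scarce in resting ones, whereas others keep a steady RNA level in cells that do not divide. Adult valve and vessel cells divide rarely, and the lesions of cholesterol-fed rabbits gather macrophages, some of which divide in place.

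The animals were male New Zealand White rabbits that entered the protocol at 12 weeks of age and were followed for 16 weeks. Control rabbits (Ctrl) ate chow and received no vitamin D2. The CHT group ate chow with 0.3% cholesterol and the Lard group chow with 5% lard, each together with 25000 U of vitamin D2 a day per 2.5 kg of body weight for 15 days. IR/CHT rabbits had the CHT diet and the same vitamin D2, and after 8 weeks of diet their aortic valve and thoracic aorta were irradiated with 24 Gy in 3 fractions of 8 Gy. Because Ctrl rabbits lacked vitamin D2, and no group with vitamin D2 or irradiation alone was analysed here, diet and vitamin D2 cannot be told apart in the comparisons with Ctrl. The rabbit numbers began with 08 in all Ctrl, 09 in all CHT and Lard and 28 in all IR/CHT animals, and what this start means is not stated, so that anything it marks cannot be told apart from treatment either. The libraries came from 27 rabbits, with 7 Ctrl, 6 CHT, 7 Lard and 7 IR/CHT libraries in each of the proximal aorta (Ao) and the aortic (AoV), mitral (MV), pulmonary (PV) and tricuspid (TV) valves, except for 6 Ctrl libraries in the mitral valve.

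The libraries held 13564979 to 50577676 counted read pairs (median 18235577). Values are CPM, that is a gene's read count scaled to a common library size, after TMM scaling within a tissue, and a gene was called when edgeR's quasi-likelihood test gave a Benjamini-Hochberg adjusted p under 0.05 and a fold change over 1.5. Plate 2 carried the whole aorta set, and plate 1 every CHT sample from the aortic or mitral valve. Summed smooth muscle markers were at 72280 to 100300 CPM in Ctrl aorta and at 169.5 to 1318 CPM in Ctrl valves. A few libraries stood apart. Library L569 of the aorta held 70 read pairs of RRM2 where the other 6 held 3 to 12. In Ctrl aortic valve, libraries L240 and L277 had 12590 and 4473 CPM of heart muscle markers, against 172.6 to 1304 CPM in the other 5, and L150, L166 and L261 were the lowest of their group for RRM1, RFC1, MCM3 and PRIM2 and the highest for POLD2. In IR/CHT pulmonary valve, L176 had 20510 CPM of smooth muscle markers (the other 6 had 287 to 1980 CPM) and L275 had 112 CPM of endothelial markers (the other 6 had 1094 to 1484 CPM).

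Part of the replication machinery rose in the aorta and in the aortic and mitral valves of CHT rabbits, and in these 2 valves more of its genes rose in IR/CHT rabbits. In aorta of CHT rabbits, 12 of the 30 genes rose against Ctrl and none fell, where 14.2% of all 14777 genes tested rose. Of the same genes, 8 of 30 rose in the aortic valve (8.42% of all genes) and 3 of 30 in the mitral valve (4.98%). With only CHT and Ctrl libraries in the fit, the aortic valve count was 5, with ORC1, ORC6 and MCM2 lost. Under IR/CHT, 12 rose and 1 fell in the aorta (22.2% and 12.2% of all genes), 15 rose in the aortic valve (21.1%) and 9 rose in the mitral valve (11.1%). The share of members that rose was thus larger than the share of all genes in each of these 6 comparisons, and the share that fell in IR/CHT aorta was smaller. The median log2 fold change of the 30 genes was 0.21, 0.46 and 0.15 for CHT and 0.35, 0.64 and 0.27 for IR/CHT in aorta, aortic and mitral valve, with medians of all genes between -0.06 and 0.01. In these 3 tissues 15 of the 30 genes rose in at least 1 of the 6 comparisons, and the other 15 rose in none.

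**Figure D1:**
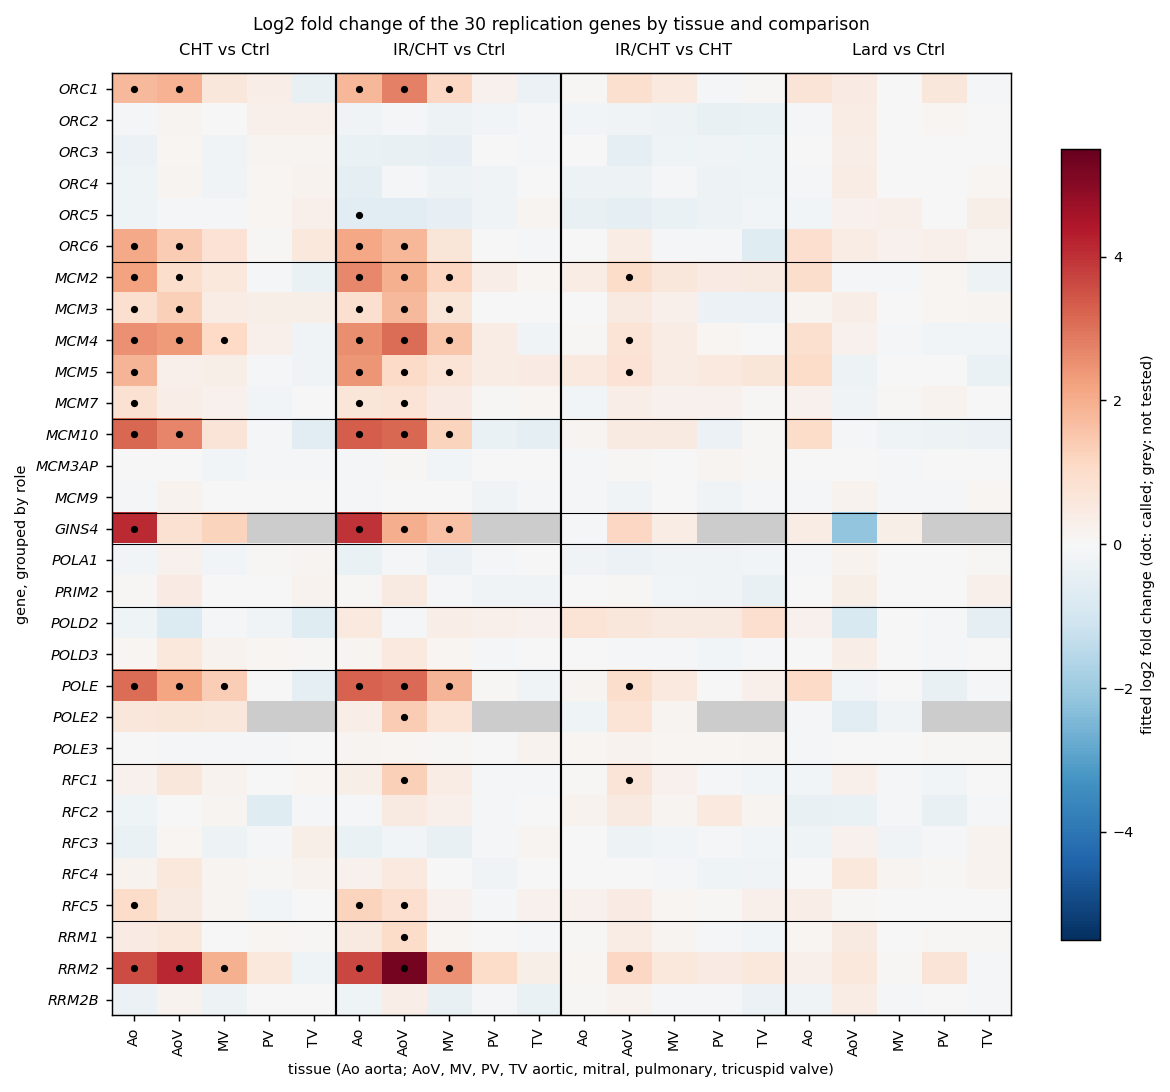
Fitted log2 fold change of the 30 genes (rows, grouped by role) in 20 comparisons of treatment (columns, 5 tissues for each of 4 comparisons); red is higher and blue lower, a dot marks a called gene, and grey cells were not tested. Among the complexes with several listed members, the helicase alone has dots in all its rows, and red cells with dots lie only in the columns of the aorta and the left-sided valves (AoV, MV) of the comparisons with CHT or IR/CHT, as for RRM2, which reached 5.28 in the aortic valve of IR/CHT rabbits.

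Markers of macrophages, T cells and B cells moved with these genes under CHT and IR/CHT. The summed level of the 12 macrophage markers found, out of 13 sought, ran from 63.3 to 272.9 CPM in Ctrl aorta, from 468 to 1228 CPM under CHT and from 716 to 2588 CPM under IR/CHT. The aortic valve had 210 to 665 CPM in Ctrl, 936 to 1410 CPM under CHT and 2656 to 3332 CPM under IR/CHT, and the mitral valve 252 to 749, 736 to 1424 and 1033 to 1989 CPM. Of the 12 markers, 10, 7 and 9 rose under CHT in aorta, aortic and mitral valve, and 12, 10 and 10 under IR/CHT, with none at 0 in a whole group. T cell markers (4 of 9 found) summed to at most 4.63 CPM in Ctrl of these 3 tissues, to 7.96 to 27.8, 10.9 to 22.8 and 4.73 to 15.5 CPM under CHT and to 12.2 to 25.9, 26.2 to 60.9 and 6.64 to 27.8 CPM under IR/CHT, with TRAT1 at 0 in every CHT library of the aortic valve, and B cell markers (5 of 6 found) went from at most 17.9 CPM to 20.7 to 56.8, 15.5 to 75.6 and 7.84 to 47.9 CPM under CHT and to 13.8 to 92.8, 63.5 to 121 and 19.6 to 69.7 CPM under IR/CHT. Summed smooth muscle markers of the aorta were at 27970 to 70190 CPM under CHT and at 10540 to 53340 CPM under IR/CHT, with 3 and 4 of 5 lower. In the mitral valve they were at 169.5 to 449 CPM in Ctrl, at 502.5 to 1446 CPM under CHT, without overlap, and at 228.6 to 1543 CPM under IR/CHT, with 2 of 5 higher under each treatment. In the aortic valve 1 rose and 1 fell under CHT, and 2 rose and 3 fell under IR/CHT. Summed endothelial markers of the aorta had medians of 159.9 CPM in Ctrl and 529 CPM under CHT, with overlap, where 7 of 8 rose, and heart muscle markers of the aortic valve at 172.6 to 12590 CPM in Ctrl and 9.64 to 354 CPM under CHT, where 6 of 7 fell. Under CHT in the aorta 3 of 7 fibroblast markers rose, 1 of 6 heart muscle markers and 2 of 2 red blood cell markers fell, and no other marker of the endothelial, fibroblast, neutrophil, heart muscle, red blood cell and adipocyte lists was called in these 3 tissues. Of the other lists under IR/CHT in aorta, aortic and mitral valve, 7, 1 and 1 of 8 endothelial markers rose, as did 4, 1 and 0 of 7 fibroblast markers (1 fell in each) and 1, 1 and 0 neutrophil markers. Heart muscle markers had 4 higher and 1 lower, 0 higher and 6 lower, and 1 higher, red blood cell markers 1, 1 and 0 lower, and adipocyte markers 0, 1 and 2 lower. In the aorta, the summed heart muscle markers had a lower median under IR/CHT, 291.3 CPM (161.3 to 2756), than in Ctrl, 590.6 CPM (471.3 to 673.4). The part of these cells in the results below was not tested. In bulk RNA, more cells of a type that replicates and more RNA of a gene in each cell cannot be told apart.

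Within the origin recognition complex, only ORC1 and ORC6 rose, and no call was made for a rise of the 4 other subunits. ORC1 is the largest subunit and ORC6 the one least tightly held in the complex. ORC6 in Ctrl aorta ran from 0.274 to 0.511 CPM with a median of 0.373, and rose to 1.05, 1.26 and 3.32 CPM (lowest, median and highest) under CHT and to 1.10, 1.63 and 2.13 CPM under IR/CHT. Neither treated group overlapped Ctrl, and the log2 fold changes were 2.07 (SE 0.33, adjusted p = 2.94e-05) and 2.11 (SE 0.32, adjusted p = 8e-06). Its Ctrl range in the aortic valve, 0.157 to 1.97 CPM, reached into those of CHT (1.56 to 3.56 CPM) and IR/CHT (1.65 to 5.37 CPM), and it rose 2.64-fold (adjusted p = 0.0143) and 3.50-fold (adjusted p = 0.000268). On plate 1 alone the log2 fold changes were larger, at 2.22 and 2.85, and for IR/CHT, where all libraries gave 1.81, plate 2 alone gave 1.002, and the call was lost. The CHT call was lost with plate as a covariate or with only the 2 groups in the fit. ORC1 went from a median of 0.756 CPM in Ctrl aortic valve (0 to 0.954) to 2.17 CPM under CHT (1.57 to 2.54) and 3.50 CPM under IR/CHT (2.72 to 6.19). The 3 groups stood clear of each other, but ORC1 was not called in IR/CHT against CHT. Its log2 fold changes against Ctrl were 1.90 and 2.78. On plate 1 alone that of CHT was 2.58 and was not called (adjusted p = 0.0764). In the mitral valve ORC1 rose under IR/CHT by 1.12 (adjusted p = 0.0286), which was lost without Ctrl library L156 (adjusted p = 0.0613), IR/CHT library L237 (0.0544) or L274 (0.0575), with only the 2 groups in the fit and on plate 2 alone.

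ORC5, an ATP-binding subunit of the same complex, was the only member that fell in a comparison of treatments. Its level in the aorta was 7.19 to 11.6 CPM in Ctrl (median 10.6) and 5.47 to 8.46 CPM under IR/CHT (median 6.30). These ranges overlapped, and the log2 fold change was -0.64 (SE 0.13, adjusted p = 0.00028). ORC4, another subunit that binds ATP, was at 20.1 to 28.7 CPM in Ctrl and 12.7 to 19.1 CPM under IR/CHT. All 7 IR/CHT libraries were thus below all Ctrl libraries, but its log2 fold change of -0.50 (SE 0.11, adjusted p = 0.00059) was under the fold threshold. ORC3 had log2 fold changes of -0.36, -0.41 and -0.44 in aorta, aortic valve and mitral valve under IR/CHT, and ORC2 of -0.20, -0.06 and -0.27, none of them called. The lowest member in IR/CHT aortic valve was ORC5, with -0.58 (SE 0.24, adjusted p = 0.0518), at 6.52 to 17.5 CPM in Ctrl (median 7.96) and 4.10 to 10.0 CPM under IR/CHT (median 5.91), which overlapped, and DESeq2 called it lower there. In the mitral valve ORC5 had -0.43 (SE 0.17, adjusted p = 0.0587).

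The helicase subunits rose as a set in the aorta under CHT (5 of 5) and in the aorta and aortic valve under IR/CHT (5 of 5 each), with 3 of 5 in the aortic valve under CHT and 1 and 4 of 5 in the mitral valve. MCM4 was at 1.49 to 4.41 CPM in Ctrl aortic valve (median 3.41), at 9.78 to 20.2 CPM under CHT (median 16.4) and at 19.1 to 34.8 CPM under IR/CHT (median 28.0). Both treated groups were above every Ctrl library, with log2 fold changes of 2.34 (SE 0.27, adjusted p = 3.85e-07) and 3.09 (SE 0.27, adjusted p = 5.18e-10), the latter the smallest p of any member against Ctrl. In the aorta MCM4 rose from 1.29 to 4.17 CPM (median 2.18) to 7.12 to 24.0 CPM (median 9.99) under CHT, by 2.50, and in the mitral valve from a median of 5.87 to 12.9 CPM, by 1.10. MCM7 had the smallest rise of the set wherever all 5 rose. Its aorta level was 12.6 to 18.5 CPM in Ctrl, 18.8 to 40.2 CPM under CHT and 20.7 to 32.4 CPM under IR/CHT, with log2 fold changes of 0.83 and 0.67 and no overlap with Ctrl. In the mitral valve MCM7 was not called under IR/CHT (log2 fold change 0.44, adjusted p = 0.0128, under the fold threshold).

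MCM2, MCM3 and MCM5 belong to one ring with MCM4 and MCM7 but differed from tissue to tissue. MCM2 ran from 2.49 to 6.26 CPM in Ctrl aorta (median 3.98), from 6.91 to 32.9 CPM under CHT (median 19.0) and from 11.5 to 31.8 CPM under IR/CHT (median 29.0). In the aortic valve the Ctrl level was 10.1 to 21.6 CPM (median 13.1), the CHT level 12.9 to 44.6 CPM (median 24.98) and the IR/CHT level 44.9 to 65.8 CPM (median 54.9). CHT overlapped Ctrl there and IR/CHT stood above both, with log2 fold changes against Ctrl of 0.95 (adjusted p = 0.00479) and 1.95 (adjusted p = 7.64e-08). MCM5 rose in aorta from 0.884 to 3.51 CPM (median 2.08) to a median of 6.79 CPM under CHT and 11.2 CPM under IR/CHT, by 1.86 and 2.41. Ctrl libraries of the aortic valve already lay at 4.59 to 19.7 CPM (median 12.1), CHT libraries at 7.02 to 23.2 CPM (median 11.6) and IR/CHT libraries at 16.6 to 40.7 CPM (median 21.2). CHT left it uncalled (log2 fold change 0.26, SE 0.29, adjusted p = 0.534), and it rose under IR/CHT by 1.06. MCM3 showed the opposite order of tissues, with 18.5 to 24.7 CPM in Ctrl aorta against 27.7 to 53.5 CPM under IR/CHT (log2 fold change 0.87), and 7.54 to 26.1 CPM in Ctrl aortic valve against 42.3 to 80.7 CPM (1.80).

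**Figure D2:**
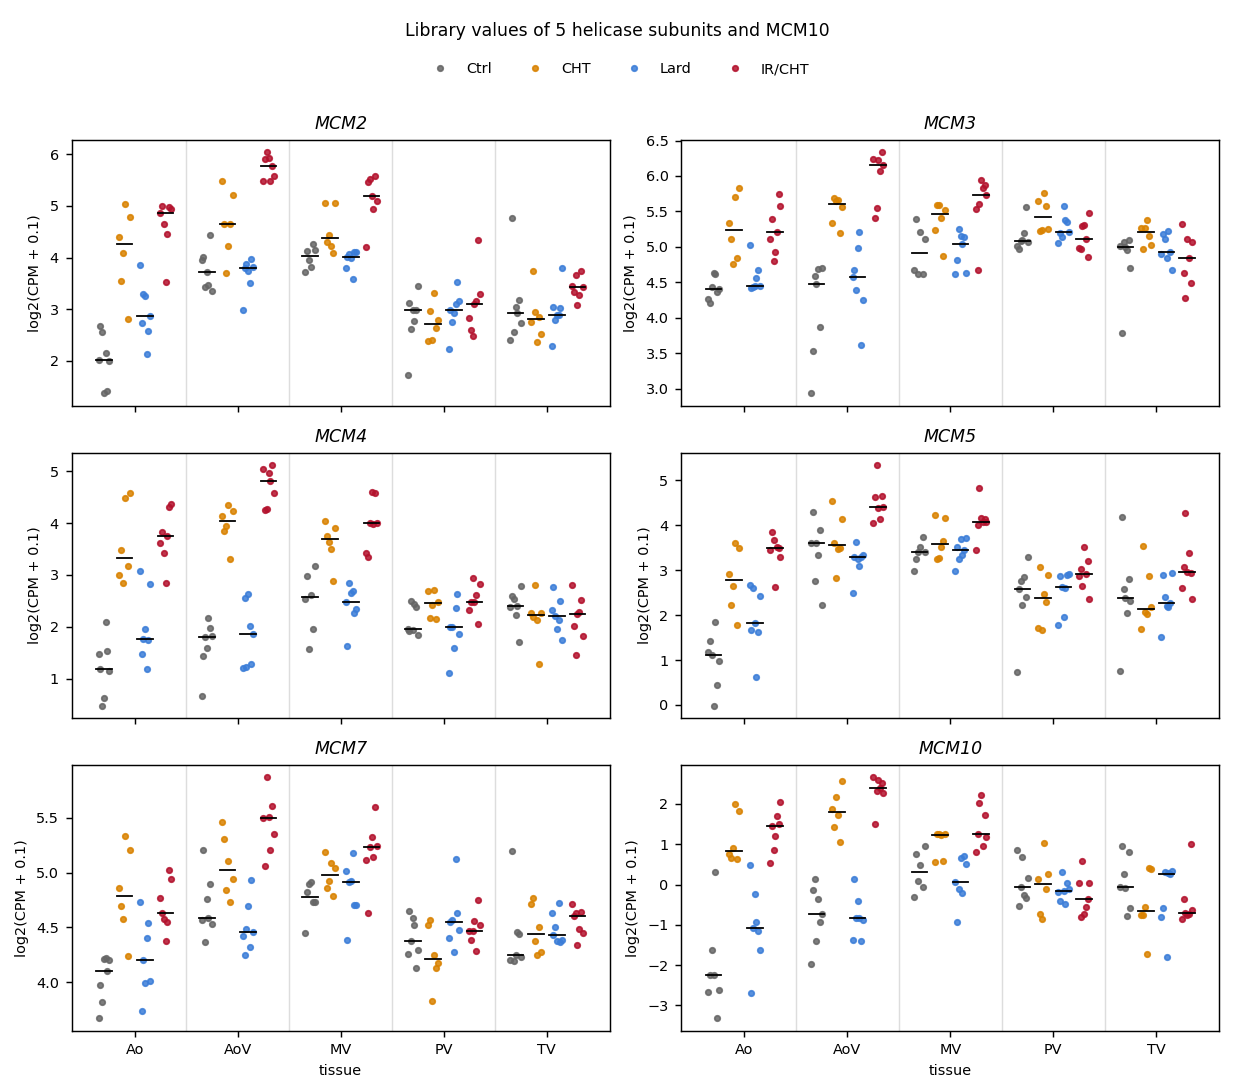
Level of MCM2, MCM3, MCM4, MCM5, MCM7 and MCM10 as log2(CPM + 0.1) in every library (points, coloured by treatment) of the 5 tissues, with black lines at group medians. In the aortic valve the IR/CHT points of MCM4 sit at 19.1 to 34.8 CPM and its Ctrl points at 1.49 to 4.41 CPM, while in the pulmonary and tricuspid valves the 4 treatments overlap for all 6 genes.

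Of the factors that start the helicase, both members found rose. MCM10, which helps to activate the helicase and stays with the moving fork, was at 0 to 1.15 CPM in Ctrl aorta (median 0.111), at 1.46 to 3.89 CPM under CHT and at 1.34 to 4.01 CPM under IR/CHT. The highest Ctrl value came from L569, the next being 0.224 CPM, and no treated library fell below it. The log2 fold changes were 3.17 (SE 0.63, adjusted p = 0.000402) and 3.32 (SE 0.62, adjusted p = 8.49e-05), and in the aortic valve 2.68 and 3.17. Without L569 those of the aorta were 4.50 and 4.65. GINS4, a subunit of the GINS complex, had no read pair in 5 of the 7 Ctrl aorta libraries, and 1 and 6 read pairs in the others. Under CHT it reached 0.540 to 2.11 CPM (median 0.940), above all Ctrl libraries, and under IR/CHT 0.269 to 2.13 CPM (median 0.771), with 6 of 7 libraries above all Ctrl. Its fitted log2 fold changes of 4.10 (SE 0.87) and 3.99 (SE 0.85) were the largest of any member in the aorta, but they depend on the prior count, since most Ctrl libraries held none, and without L569 they were 6.07 and 5.96. In the aortic valve GINS4 was not called under CHT (0.84, SE 0.52, adjusted p = 0.264) and rose under IR/CHT from 0.0962 to 1.18 CPM to 1.33 to 3.16 CPM, by 2.00, and in the mitral valve by 1.63 (adjusted p = 0.0196). Its call was lost in 1 of 24 alternatives in the aortic valve (plate 1 alone) and in 3 of 22 in the mitral valve (plate 1 alone, plate 2 alone and 1 fit of all 5 tissues).

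MCM9 and MCM3AP carry the MCM name but are not parts of the replicative helicase. MCM9 acts with MCM8 in recombination repair, and MCM3AP codes for a protein that binds MCM3 and takes part in mRNA export. MCM9 ran from 18.1 to 23.6 CPM in Ctrl aorta and from 14.3 to 23.8 CPM under IR/CHT, and MCM3AP from 97.3 to 130 CPM and from 96.2 to 118 CPM. Their log2 fold changes against Ctrl lay between -0.14 and 0.20 in the 3 tissues under CHT and IR/CHT, with SEs of 0.07 to 0.12 and no call.

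Among the polymerases, POLE rose in all 3 tissues under both treatments, and POLE2 was called only in IR/CHT aortic valve. POLE is the catalytic subunit of polymerase epsilon, which copies the leading strand. It ran from 0.455 to 2.25 CPM in Ctrl aorta (median 1.17), from 4.99 to 17.3 CPM under CHT (median 7.83) and from 6.90 to 15.1 CPM under IR/CHT (median 10.3). Without overlap with Ctrl, it rose by 3.09 (SE 0.39, adjusted p = 1.05e-06) and 3.25 (SE 0.39, adjusted p = 1.97e-07). Medians of 2.62, 9.67 and 21.2 CPM in aortic valve and 3.13, 8.06 and 12.3 CPM in mitral valve (Ctrl, CHT and IR/CHT) gave log2 fold changes of 2.16 and 3.14 and of 1.35 and 1.88, again with no treated library inside the Ctrl range. POLE2, the next subunit of the enzyme, was low, at 0 to 1.90 CPM in Ctrl aortic valve and 0.762 to 1.86 CPM under IR/CHT. Every treated library lay below the highest Ctrl library, and its call there (log2 fold change 1.42, adjusted p = 0.044) was lost in 12 of 24 alternative settings, with adjusted p from 0.0554 to 0.0820 when any of Ctrl libraries L150, L166, L182, L261 or L277 or IR/CHT libraries L174, L178, L236 or L273 was left out. Without Ctrl library L240 its log2 fold change was 2.27. POLE3, a histone-fold subunit that also belongs to a chromatin remodelling complex, was at 39.6 to 60.5 CPM in Ctrl aortic valve and 42.5 to 68.3 CPM under IR/CHT, with a log2 fold change of 0.11 (SE 0.13, adjusted p = 0.507).

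No subunit of polymerase alpha, primase or polymerase delta rose in any comparison of treatments. POLA1, the catalytic subunit of polymerase alpha, was at 35.2 to 50.4 CPM in Ctrl aorta (median 49.4) and at 25.9 to 43.8 CPM under IR/CHT (median 39.1). It had a log2 fold change of -0.35 (SE 0.10, adjusted p = 0.00513), within the fold threshold, and of -0.08 and -0.34 in the aortic and mitral valves. PRIM2, the large subunit of primase, had log2 fold changes from -0.10 to 0.49 across the 3 tissues and both treatments, and was at 5.34 to 16.8 CPM in Ctrl and 9.06 to 21.2 CPM in IR/CHT aortic valve. POLD3, an accessory subunit of polymerase delta, ran from 13.4 to 29.2 CPM in Ctrl aortic valve, from 24.2 to 38.8 CPM under CHT and from 26.2 to 36.3 CPM under IR/CHT. Its log2 fold changes of 0.57 (adjusted p = 0.0105) and 0.52 (adjusted p = 0.00432) passed the p threshold and not the fold threshold. POLD2, the other accessory subunit found, spread widely, from 3.94 to 24.9 CPM in Ctrl aortic valve and from 2.46 to 10.9 CPM in Ctrl aorta. Under CHT it had the lowest log2 fold change of the members in the aortic valve (-0.74, SE 0.37, adjusted p = 0.173).

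In the clamp loader, RFC5 rose in aorta and RFC1 and RFC5 in IR/CHT aortic valve. RFC1 is the large subunit that makes the loader specific for PCNA, and RFC2 to RFC5 are small subunits shared with other loaders. RFC5 went from 2.73 to 5.83 CPM in Ctrl aorta (median 3.19) to 6.26 to 9.34 CPM under CHT (median 7.29) and 5.78 to 10.9 CPM under IR/CHT (median 8.75). All CHT libraries and 6 of 7 IR/CHT libraries were above Ctrl, and it rose by 1.01 (SE 0.18, adjusted p = 0.00014) and 1.24 (SE 0.18, adjusted p = 3.48e-06). RFC1 was at 59.7 to 173.9 CPM in Ctrl aortic valve (median 132), at 119 to 206 CPM under CHT (median 182.2) and at 206 to 447 CPM under IR/CHT (median 288). Each IR/CHT library was above the CHT range, and the rise against Ctrl was 1.33 (SE 0.21, adjusted p = 7.76e-06). In the same valve RFC5 was at 4.71 to 9.47 CPM in Ctrl and at 10.1 to 17.2 CPM under IR/CHT, without overlap, and rose by 0.92 (SE 0.18). In the aorta and mitral valve RFC1 had log2 fold changes of 0.32 and 0.41 under IR/CHT, under the fold threshold. RFC3 had the lowest log2 fold change of all members in CHT aorta (-0.39, SE 0.19, adjusted p = 0.135), with 13.2 to 30.3 CPM in Ctrl and 14.2 to 21.8 CPM under CHT, and RFC2 and RFC4 were not called in these 3 tissues.

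Ribonucleotide reductase had the largest response and also a subunit with no call, RRM2B. RRM2 codes for the small subunit that accumulates in S phase, RRM1 for the large catalytic subunit, and RRM2B for an alternative small subunit that p53 induces and that supplies nucleotides for repair and for mitochondrial DNA. RRM2 ran from 0.236 to 1.44 CPM in Ctrl aortic valve (median 0.504), from 7.66 to 16.8 CPM under CHT (median 12.1) and from 18.5 to 40.9 CPM under IR/CHT (median 24.3). The 3 groups did not overlap, and the log2 fold changes against Ctrl were 4.16 (SE 0.45, adjusted p = 1.83e-07) and 5.28 (SE 0.46, adjusted p = 6.59e-10), the latter a 38.9-fold rise. On plate 1 alone the latter was 6.004. In the aorta it went from 0.170 to 3.84 CPM (median 0.449) to 4.44 to 21.8 CPM and 6.03 to 19.1 CPM, by 3.58 and 3.69, and only Ctrl library L569 (3.84 CPM, the next at 0.683 CPM) came near the treated ones. Without it the log2 fold changes were 4.61 and 4.72. The mitral valve started higher, at 1.34 to 3.99 CPM (median 2.08), and rose to 4.73 to 14.9 CPM and 8.10 to 22.9 CPM, by 1.97 and 2.53.

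RRM1 was called in IR/CHT aortic valve alone, from 8.41 to 27.0 CPM in Ctrl (median 21.2) to 20.2 to 47.1 CPM (median 40.9), by 1.01 (SE 0.28, adjusted p = 0.00416). The ranges overlapped, and the 3 lowest Ctrl values, 8.41 to 9.49 CPM, belonged to L150, L166 and L261. In aorta its log2 fold changes of 0.46 and 0.50 passed the p threshold and not the fold threshold. RRM2B was at 24.2 to 34.7 CPM in Ctrl aorta, 20.4 to 27.3 CPM under CHT and 15.3 to 34.8 CPM under IR/CHT, and in aortic valve at 18.3 to 30.9, 20.5 to 38.6 and 17.6 to 40.4 CPM. Groups overlapped throughout, and its log2 fold changes lay between -0.40 and 0.38. The lowest was that of IR/CHT mitral valve, at -0.40 (SE 0.13, adjusted p = 0.0253, under the fold threshold). In CHT mitral valve RRM2B had the lowest value of the members (-0.29, SE 0.14, adjusted p = 0.26).

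**Figure D3:**
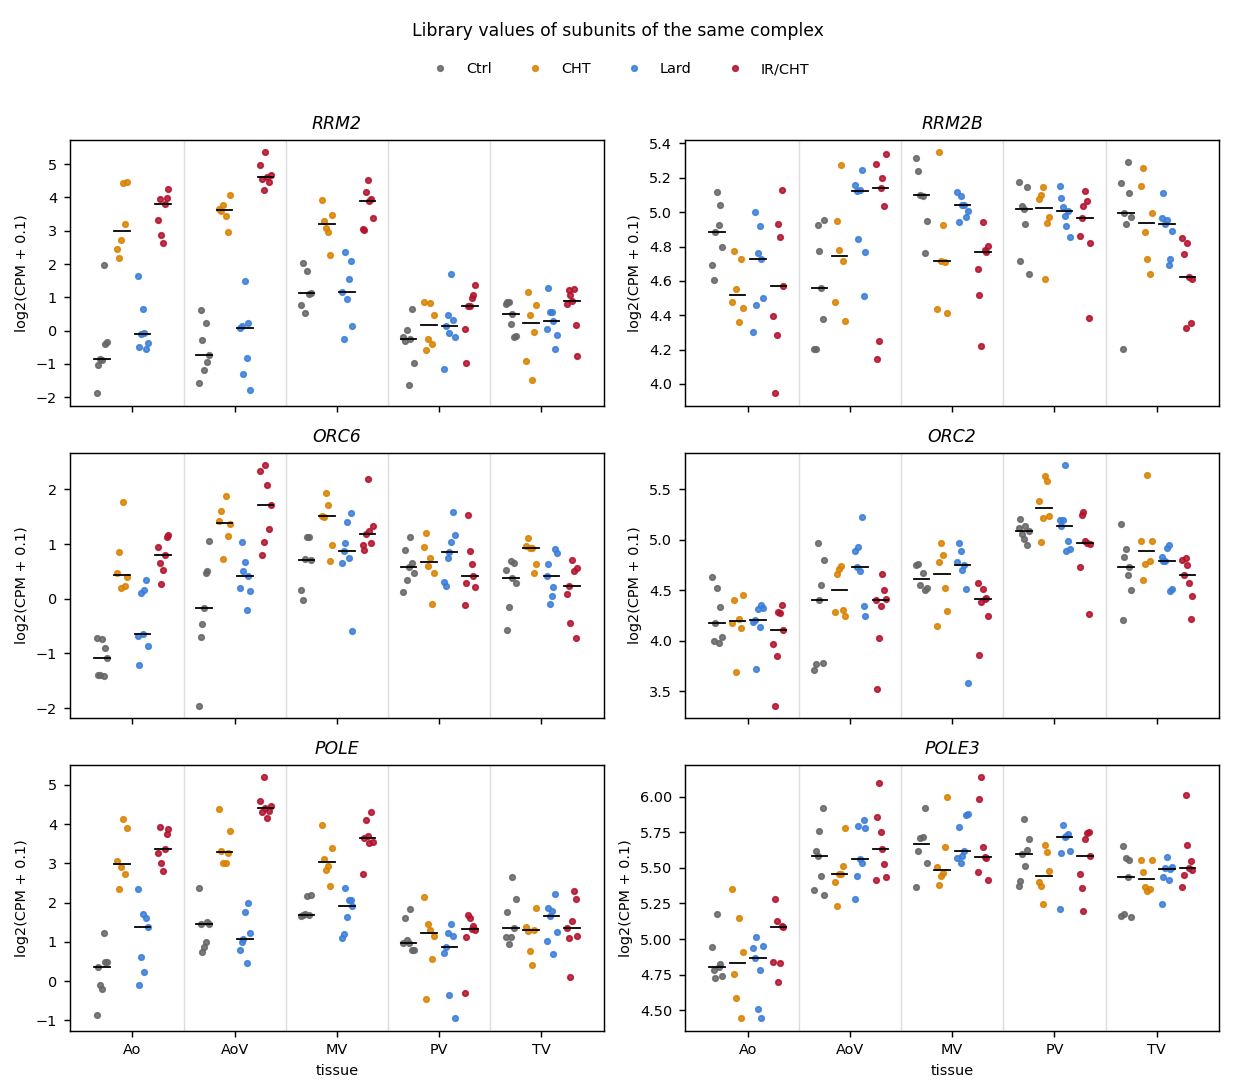
Level as log2(CPM + 0.1) in every library (points, coloured by treatment) of RRM2 and RRM2B, of ORC6 and ORC2, and of POLE and POLE3, with black lines at group medians. Each pair holds subunits of the same kind of enzyme or complex. RRM2 climbs from a Ctrl median of 0.504 CPM to 24.3 CPM in IR/CHT aortic valve, whereas the RRM2B groups overlap in all 5 tissues.

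Replication genes of the aortic valve were also higher in IR/CHT than in CHT rabbits. Against CHT, 6 of 30 rose there under IR/CHT (9.9% of all genes), namely MCM2, MCM4, MCM5, POLE, RFC1 and RRM2, a larger share than among all genes in the main fit. MCM2 and RFC1 rose by 0.996 (SE 0.23, adjusted p = 0.00241) and 0.72 (SE 0.21, adjusted p = 0.0153), and all 7 IR/CHT libraries lay above all 6 CHT libraries for both. RRM2 rose by 1.12 (SE 0.40, adjusted p = 0.0411), also without overlap, and POLE by 0.98, MCM5 by 0.79 and MCM4 by 0.76. ORC3 had the lowest value, -0.54 (SE 0.21, adjusted p = 0.0682), and GINS4 the highest, 1.16 (SE 0.51, adjusted p = 0.106), neither called. The count fell to 3 (MCM2, POLE and RFC1) when CHT library L169, L186 or L244 or IR/CHT library L236 or L273 was left out, and with plate 1 alone MCM2, RFC1 and RRM2 rose and ORC5 fell. A count of 3 of 30 is close to the 9.9% of all genes in the main fit, so the larger share depends on single libraries. Of 21 alternatives, 13 lost the call of MCM5, 11 that of RRM2, 8 that of MCM4 and 1 that of POLE, and none that of MCM2 or RFC1. Over the same 2 groups, 9 of 12 macrophage and 3 of 3 T cell markers tested rose, and their part in this result was not tested.

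In the aorta no member differed between IR/CHT and CHT by edgeR (0.596% of all genes in either direction), with 3 at an unadjusted p under 0.05 and 0 by DESeq2. The log2 differences ran from -0.39 (ORC5, SE 0.14, adjusted p = 0.119) to 0.77 (POLD2, SE 0.29, adjusted p = 0.133). The mitral valve also had 0 of 30 by edgeR and by DESeq2 (0.189% of all genes) and 5 at an unadjusted p under 0.05. MCM2 had its highest log2 difference, 0.62 (SE 0.19, adjusted p = 0.152), and ORC5 its lowest, -0.35 (SE 0.17, adjusted p = 0.383). MCM2 was called there once IR/CHT library L175 was left out.

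Plates and single libraries moved some counts. With the libraries of 1 plate alone, IR/CHT against Ctrl gave 12 called members on plate 1 and 12 on plate 2 in the aortic valve, and 6 and 3 in the mitral valve, where plate 2 had 2 Ctrl and 3 IR/CHT libraries. CHT against Ctrl on plate 1 gave 6 in the aortic valve and 3 in the mitral valve, and plate 2 held no CHT library of these tissues. Leaving out each library in turn gave 12 throughout for CHT aorta, 8 to 10 and 3 to 4 for CHT aortic and mitral valve, and 13 to 14, 14 to 16 and 8 to 9 for IR/CHT. Without L240 and L277, the Ctrl aortic valve libraries rich in heart muscle RNA, 9 and 14 members were called under CHT and IR/CHT, MCM7 being lost under IR/CHT (log2 fold change 0.57).

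With edgeR fitted within each tissue, no member was called under Lard. In the aorta 0 of 30 were called (2.61% of all genes), with 6 at an unadjusted p under 0.05. The highest log2 fold changes there were those of POLE (1.06, SE 0.37, adjusted p = 0.146), MCM5 (0.99, adjusted p = 0.107), MCM10 (between these values, SE 0.63, adjusted p = 0.458) and MCM2 (0.97, adjusted p = 0.0921), and the lowest that of RFC2 (-0.39, SE 0.24, adjusted p = 0.447). MCM2 ran from 4.27 to 14.3 CPM under Lard (median 7.23) and from 2.49 to 6.26 CPM in Ctrl, which overlapped. Of the 12 macrophage markers 7 rose in Lard aorta. DESeq2 called MCM2 and MCM5 there, as did edgeR without Lard library L576, and MCM10 was called without Ctrl library L569. With all 5 tissues in 1 edgeR fit, MCM2, MCM4 and MCM5 were called higher there. Aortic valve had 0 of 30 (0.234% of all genes) with 5 at an unadjusted p under 0.05, and its lowest value was that of GINS4 (-2.15, SE 0.57, adjusted p = 0.167), which DESeq2 called lower. GINS4 was at 0 to 0.223 CPM under Lard and 0.0962 to 1.18 CPM in Ctrl, and RFC4 had the highest value (0.58, SE 0.27, adjusted p = 0.44). The mitral, pulmonary and tricuspid valves had 0 called members (0%, 0% and 0% of all genes) by edgeR and by DESeq2, with 0, 0 and 1 at an unadjusted p under 0.05, and log2 fold changes from -0.22 (MCM10) to 0.34 (GINS4) in the mitral valve, -0.42 (POLE) to 0.70 (RRM2) in the pulmonary valve and -0.47 (POLD2) to 0.33 (ORC5) in the tricuspid valve.

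Neither valve of the right heart showed a called change. Of the 28 members tested there, all but GINS4 and POLE2, CHT against Ctrl gave 0 in the pulmonary valve (0.159% of all genes) and 0 in the tricuspid valve (0.163%), with 2 and 1 at an unadjusted p under 0.05. IR/CHT against Ctrl gave 0 in both (0.706% and 0.231%), with 1 at an unadjusted p under 0.05 in each, and IR/CHT against CHT 0 in both (0.0761% and 0%), with 3 and 5. DESeq2 called 0 in all of these comparisons. RRM2 was at 0.224 to 1.47 CPM in Ctrl pulmonary valve (median 0.740), at 0.568 to 1.73 CPM under CHT and at 0.414 to 2.49 CPM under IR/CHT (median 1.57), and the groups overlapped. Its log2 fold change of 1.03 under IR/CHT was the highest of the members in that valve and had an adjusted p of 0.255. In the tricuspid valve under IR/CHT the members ran from -0.53 (MCM10) to 0.46 (MCM5), and the lowest in the pulmonary valve was MCM10 (-0.36). Under CHT they ran from -0.67 (RFC2, SE 0.21, adjusted p = 0.254) to 0.56 (RRM2) in the pulmonary valve and from -0.69 (POLD2) to 0.57 (ORC6) in the tricuspid valve. IR/CHT against CHT gave -0.41 (ORC2) to 0.54 (RFC2) and -0.68 (ORC6) to 0.92 (POLD2). Without L176 or L275 the count for IR/CHT in the pulmonary valve was also 0. Summed macrophage markers were at 589 to 756 CPM in Ctrl pulmonary valve, at 540.6 to 828 CPM under CHT and at 298 to 973 CPM under IR/CHT.

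These differences between tissues were then tested as such, with the libraries of 2 tissues in one model and a gene called at an adjusted p under 0.05. Plate was not a term in these models. Between the pulmonary and the aortic valve, the response to CHT was smaller in the pulmonary valve for 5 of 30 members (4.01% of all genes), which were MCM3, MCM4, MCM10, POLE and RRM2. The response to IR/CHT was smaller for 14 of 30 (16.8%), which were MCM2, MCM3, MCM4, MCM7, MCM10, ORC1, ORC6, POLD3, POLE, PRIM2, RFC1, RFC5, RRM1 and RRM2. Both shares were larger than among all genes. The largest of these log2 differences were those of RRM2 (-4.20, SE 0.62, adjusted p = 3.3e-07), MCM10 (-3.46) and POLE (-2.99), and MCM4 had the smallest p (-2.63, SE 0.32, adjusted p = 5.81e-09). Against CHT, the response to IR/CHT was smaller in the pulmonary valve for 1 member, RFC1 (-0.78, SE 0.22, adjusted p = 0.0135), where 4.16% of all genes differed in that direction. With the rabbit as a block, the differences in response to CHT numbered 9. MCM3 joined RFC1 when aortic valve library L169, L265, L178 or L194 or pulmonary valve library L171, L188, L267 or L549 was left out, and the differences in response to IR/CHT numbered 12 without L275, with POLD3 and PRIM2 lost. PRIM2 was the least stable of these calls and was lost in 17 of 31 alternatives, among them the rabbit as a block, whereas POLD3 was lost in 1 of 31.

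Tricuspid against mitral valve gave 3 smaller responses to CHT (MCM4, POLE and RRM2, with 2.14% of all genes) and 7 to IR/CHT (MCM2, MCM4, MCM10, ORC1, POLE, RFC1 and RRM2, with 6.32%). RRM2 differed by -2.18 (SE 0.57, adjusted p = 0.0226) and -2.21 (SE 0.54, adjusted p = 0.0047). Only POLE stayed called for CHT without CHT mitral valve library L157 or Ctrl mitral valve library L199, and the count for IR/CHT fell to 3 without IR/CHT mitral valve library L195 or L237 and to 4 without Ctrl mitral valve library L156 or L262. Over all alternatives, the CHT call was lost in 14 of 28 for MCM4 and in 2 of 28 for RRM2. The IR/CHT call was lost in 19 of 30 for MCM2, 14 of 30 for ORC1, 8 of 30 for RFC1 and 6 of 30 for MCM10. No member differed between these valves in IR/CHT against CHT (0% of all genes, with 2 members at an unadjusted p under 0.05).

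Responses were also compared among the left-sided tissues. From mitral to aortic valve, no member differed in response to CHT (0% of all genes, with 8 members at an unadjusted p under 0.05), whereas the response to IR/CHT was smaller in the mitral valve for 7 of 30 (7.26%). These were RRM2 (-2.71, SE 0.57, adjusted p = 0.00119), MCM10 (-1.92), MCM4 (-1.54), POLE (-1.20), MCM3 (-1.08), RFC1 (-0.88) and RRM2B (-0.73, SE 0.24, adjusted p = 0.0278). RRM2B had fitted changes of opposite sign, -0.40 in the mitral and 0.38 in the aortic valve, neither of them called, and its difference was lost without Ctrl aortic valve library L166 or IR/CHT aortic valve library L174 or L547. With the rabbit as a block, 4 members differed for CHT (MCM3, MCM4, MCM10 and RRM2) and 12 for IR/CHT, and without Ctrl aortic valve library L277 11 differed for IR/CHT. IR/CHT against CHT gave 0 (2.02% of all genes, with 0 at an unadjusted p under 0.05).

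Between the aortic valve and the aorta, the response to CHT was smaller in the valve for MCM2, MCM5 and GINS4 (3 of 30 members, with 4.25% of all genes), by -1.32 (SE 0.40, adjusted p = 0.0383), -1.67 (SE 0.45, adjusted p = 0.0194) and -3.35 (SE 1.02, adjusted p = 0.0416). The value of GINS4 was -5.35 without Ctrl aorta library L569. Leaving out CHT aorta library L572 ended all 3 calls. Only MCM5 stayed called without filtering on low counts, or when CHT aorta library L559 or L574, Ctrl aorta library L551, L568, L570 or L571, CHT aortic valve library L169, L186, L228 or L244 or Ctrl aortic valve library L150 or L166 was left out. The response to IR/CHT was smaller in the valve for MCM5 (-1.497, SE 0.43, adjusted p = 0.00628, with 21.7% of all genes) and larger there for MCM3 (0.82, SE 0.28, adjusted p = 0.0219) and RFC1 (0.88, SE 0.22, adjusted p = 0.00157), with 11.1% of all genes. Both shares were smaller among the members than among all genes. RRM2 differed by 1.45 (SE 0.69, adjusted p = 0.094) and was not called. Without Ctrl aorta library L569 the number was 5. IR/CHT against CHT gave 0 (6.2% of all genes, with 2 members at an unadjusted p under 0.05).

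**Figure D4:**
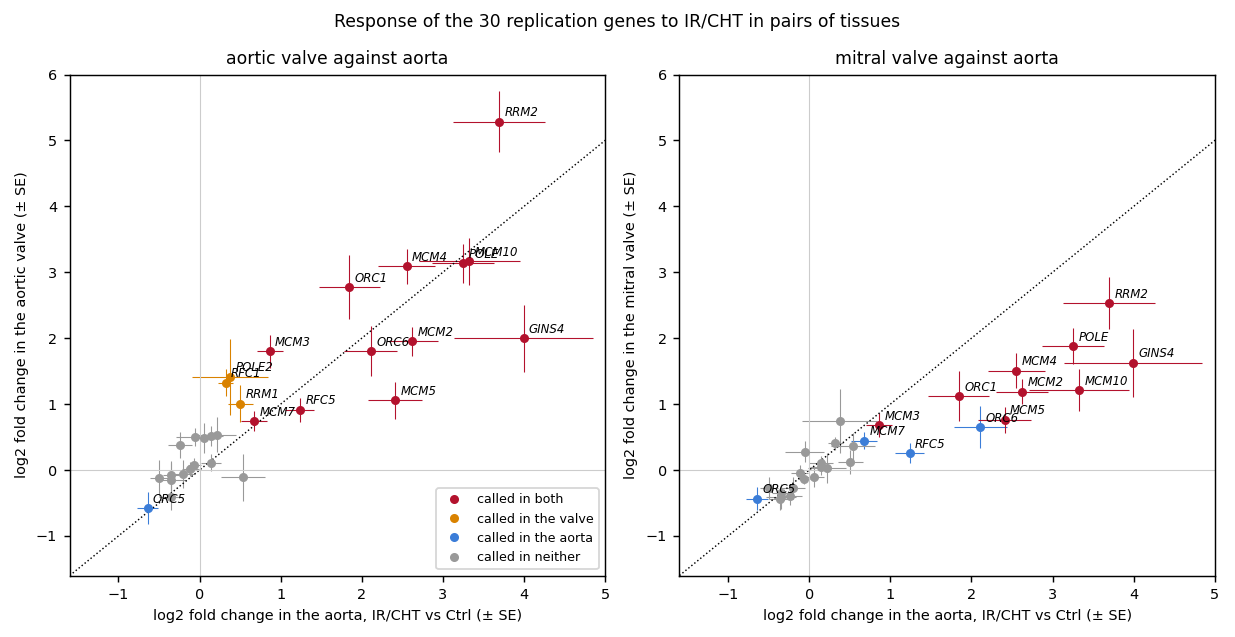
Fitted log2 fold change (± SE) of the 30 genes under IR/CHT against Ctrl in the aortic valve (left) and the mitral valve (right), each against the aorta, with a dotted line where both are equal and colours for where a gene was called. In the left panel MCM5 (1.06 and 2.41) lies under the line and RRM2, MCM3 (1.80 and 0.87) and RFC1 (1.33 and 0.32) above it; the difference between mitral valve and aorta was not tested.

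Levels in Ctrl rabbits also differed between tissues, here given as CPM on a scale set over the libraries of all tissues. In the aortic valve 8 of 30 members were higher than in the aorta (32% of all genes), which were MCM2, MCM5, GINS4, ORC6, POLE, POLE3, POLD2 and RFC5, a share close to the background. All aorta libraries were on plate 2 and the Ctrl aortic valve libraries on both plates, and plate was not in the fit. MCM5 was at 1.03 to 4.03 CPM in aorta (median 2.39) and 4.45 to 19.2 CPM in aortic valve (median 11.8), without overlap, a log2 difference of 2.36 (SE 0.32, adjusted p = 2.55e-08). MCM2 was at 2.89 to 7.11 CPM and 9.79 to 21.5 CPM, again without overlap (1.62, SE 0.28, adjusted p = 3.09e-06). GINS4 was at 0 to 0.378 CPM and 0.0940 to 1.17 CPM (2.97, SE 0.78, adjusted p = 0.00115), and the difference was 4.98 without L569. These 3 genes also had the smaller response to CHT in the valve, and both comparisons use the same Ctrl libraries. A fit of the Ctrl libraries alone tested 24 members, without GINS4 and ORC6, and called 4 (MCM2, MCM5, POLE and RFC5), and adding the rabbit as a block to it left 3, with POLE lost. The call was lost in 11 of 18 alternatives for POLE3 and in 9 of 18 for POLD2.

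Mitral valve had 4 members above the aortic valve in Ctrl (2.62% of all genes), namely MCM3, MCM4, MCM10 and RRM2. RRM2 was at 0.234 to 1.41 CPM in the aortic valve and 1.26 to 3.68 CPM in the mitral valve, a log2 difference of 1.77 (SE 0.43, adjusted p = 0.0115), and in a fit of the Ctrl libraries alone, which tested 28 members, it alone was called with the rabbit as a block and no member without the block. RRM2 alone was also called without Ctrl aortic valve library L150, L166 or L261 or Ctrl mitral valve library L183, L241 or L278, with 2 called without Ctrl mitral valve library L156 or L199 and 6 without Ctrl aortic valve library L182. The pulmonary valve stood further from the aortic valve, with 13 members higher (20% of all genes) and 4 lower (29.1%), which are a larger and a smaller share than among all genes. Lower were GINS4 (-2.28), POLD2 (-1.78, SE 0.35, adjusted p = 2.74e-05), MCM5 (-1.01) and MCM2 (-0.97), and higher were ORC2, ORC3, ORC4, ORC5, POLA1, POLD3, PRIM2, RFC1, RFC3, RFC4, RRM1, MCM3 and MCM10, by 0.62 to 0.92. Of 18 alternatives, 10 lost the call of ORC5, 8 that of MCM10, 5 that of RFC1, 2 that of RFC4 and 1 that of MCM5. The Ctrl aortic valve libraries L150, L166 and L261, lowest of their group for RRM1, RFC1, MCM3 and PRIM2 and highest for POLD2, enter these differences. Leaving out any of the 3 ended the call of RFC1 (0.54 to 0.58) and kept those of RRM1 (0.67 to 0.71), MCM3 (0.77 to 0.82), PRIM2 (0.66 to 0.75) and POLD2 (-1.71 to -1.55), and leaving out all 3 at once was not run. GINS4 was at -3.004 without Ctrl pulmonary valve library L242. POLD3 had the smallest p (0.69, SE 0.13, adjusted p = 1.92e-05), with 13.3 to 28.6 CPM in aortic valve and 26.8 to 37.2 CPM in pulmonary valve. Summed endothelial markers, here scaled within each tissue and not over all tissues, were at 109 to 652 CPM in Ctrl aortic valve and 1200 to 1753 CPM in Ctrl pulmonary valve. Their part in this was not tested. Tricuspid against mitral valve gave 0 (6.66% of all genes) by edgeR, with 3 at an unadjusted p under 0.05, and 0 of 28 in a fit of the Ctrl libraries alone. There were 4 lower when the rabbit was added to that fit as a block (MCM2, MCM5, POLD2 and RRM2) or without Ctrl tricuspid valve library L168 (GINS4, MCM2, MCM5 and POLD2).

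**Figure D5:**
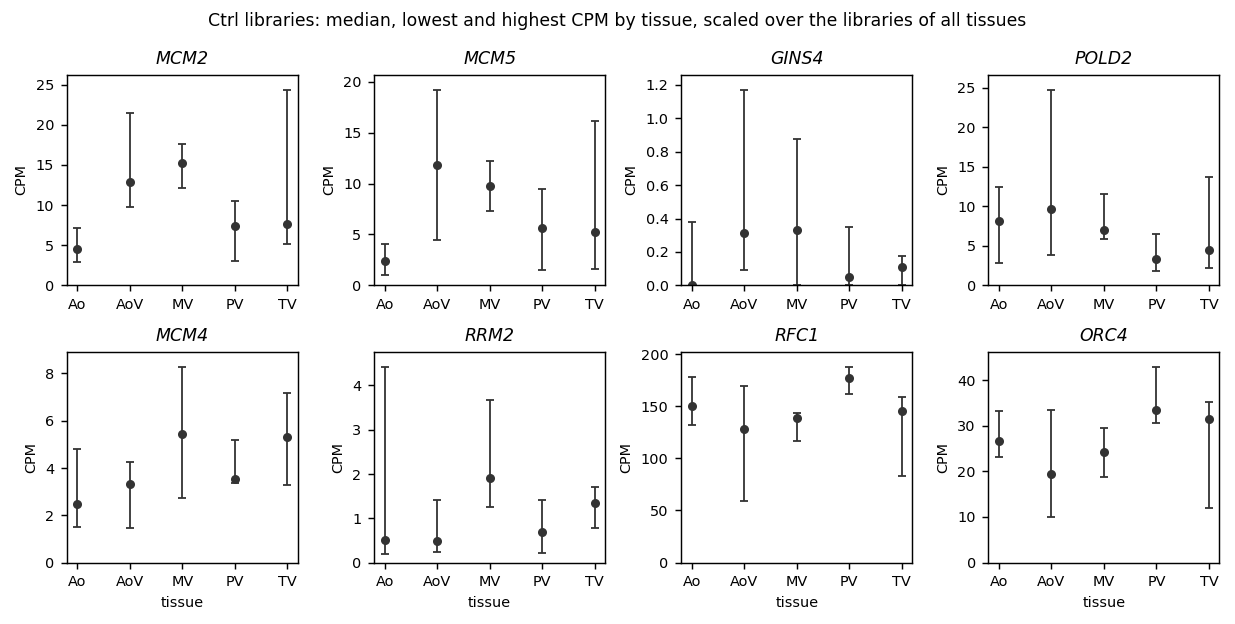
CPM of 8 members in Ctrl libraries of the 5 tissues, as median (point) and lowest to highest library (bars), scaled over the libraries of all tissues; each panel has its own axis from 0. MCM2 and MCM5 have aorta bars wholly below their aortic valve bars, while RRM2 is highest by median in the mitral valve (1.91 CPM).

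Genes that work beside the machinery rose in part as well. Of 39 genes for licensing, fork progression and chromatin assembly, 28 were found, and 9 rose and 1 fell among 27 tested in CHT aorta, 7 rose among 28 in CHT aortic valve, and 4 rose among 27 in CHT mitral valve. Under IR/CHT 10 rose and 3 fell in the aorta, 16 rose in the aortic valve and 5 rose in the mitral valve, with the smallest p in the aortic valve for TIMELESS (2.04, SE 0.15, adjusted p = 2.85e-11) and ATAD5 (2.85, SE 0.28), which protect the fork and unload PCNA, and the mediator CLSPN (3.28, SE 0.37). CLSPN was at 0.228 to 3.81 CPM in Ctrl aortic valve and 13.9 to 20.4 CPM under IR/CHT. PCNA, the ring that RFC1 loads, was at 4.95 to 28.3 CPM in Ctrl aortic valve (median 13.9), 16.1 to 44.4 CPM under CHT and 27.8 to 78.7 CPM under IR/CHT (median 60.4). It rose there by 1.10 and 1.80 and was not called in aorta (0.18 and 0.22) or mitral valve (0.28 and 0.51). Not called in IR/CHT aortic valve were TOP1, RPA1, RPA2, RPA3, DBF4B, LIG1, TOPBP1, ASF1A, MTBP, TIPIN, DSCC1 and CDC7, with log2 fold changes from -0.94 (DBF4B) to 0.64 (LIG1).

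Of 21 genes for nucleotide supply 18 were found and tested, and 4, 4 and 1 rose in aorta, aortic valve and mitral valve under CHT and 7, 10 and 5 under IR/CHT, with none lower. Among 19 E2F and G1/S genes found of 30, 5 rose and 3 fell, 6 rose and 1 fell, and 3 rose under CHT, and 7 rose and 2 fell, 8 rose and 3 fell, and 7 rose under IR/CHT, in the same order of tissues. Of 19 checkpoint genes 14 were found, and 4 rose and 1 fell, 2 rose, and 1 rose and 1 fell under CHT, and 5 rose and 1 fell, 6 rose, and 3 rose under IR/CHT. RRM2B belongs to this list as well. Lard called none of these 4 lists in the aorta, aortic valve or mitral valve. The shares of all genes that rose in these comparisons are those given above for the members. Of all genes, 5.18%, 3.48% and 0.64% fell under CHT in aorta, aortic valve and mitral valve, and 12.2% and 21.7% under IR/CHT in aorta and aortic valve.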

How the data were processed

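Total RNA-seq libraries of 5 tissues were made with a stranded low-input kit on 2 plates. Per the labels and the study's methods, the authors made FASTQ files with bcl2fastq 2.20, processed them with an nf-core RNA-seq pipeline against the rabbit genome OryCun2.0 and deposited tables of raw read counts per gene. No normalization had been applied. How the counter treated reads shared by similar genes is not given in the sources used here, so close paralogs may share counts. Replicates are libraries of different rabbits. No pair of libraries in a group was identical (384 pairs).

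Counts were tested per tissue over the 4 treatments with edgeR 4.0.16 in R 4.3.3 (TMM, filterByExpr with a minimum count of 10, robust quasi-likelihood test), and p-values were adjusted over all genes tested. Differences in response and Ctrl tissue differences came from fits of both tissues. The depth of a library sets the precision of low genes, since 1 read pair in a median library is about the smallest level that can be seen. The members, the gene lists (replication partners, nucleotide supply, E2F and G1/S, checkpoint, and markers of macrophages, T cells, B cells, neutrophils, smooth muscle, endothelium, fibroblasts, heart muscle, red blood cells and adipocytes) and the tests were chosen with earlier results of these data known. All members may be named. The rule for levels was to give them for the member of each role with the smallest p in CHT aorta, for RRM2B, for members whose responses differed, log2 fold changes also for the extremes of each comparison of treatments, and, of the partners, for the 3 smallest p in IR/CHT aortic valve, those not called there and PCNA. Levels of ORC4, ORC5, MCM9, MCM3AP, POLE2, POLE3 and RFC3 are given outside this rule and were chosen after their values were seen. MKI67 and CDKN1A were not found by symbol and were not analysed here.

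The library numbers used here are not shared between libraries. Libraries of 2 tissues come from the same rabbit where their column names start with the same rabbit number. Their deviations from the group means had a median correlation of 0.201 (aortic valve and aorta), 0.439 (mitral and aortic valve), 0.175 (pulmonary and aortic valve) and 0.279 (tricuspid and mitral valve) over all genes, against -0.0887 to -0.0301 for different rabbits. Alternatives were DESeq2 1.42.0, its size factors in edgeR, no filter, no fold threshold and other sets of libraries in the fit. Plate, the rabbit as a block and leaving out each library were also used. The DESeq2 test, no fold threshold and plate were run only for comparisons of treatments within a tissue, and plate only within the valves. Differences between tissues were therefore not checked for plate or by the DESeq2 test. Leaving out the 2 Ctrl aortic valve libraries richest in heart muscle markers and fitting the Ctrl libraries alone were added after seeing the data. The scripts were tested on simulated data.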

Additional observations from a re-analysis of the deposited data

Results flagged for a closer look

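Some libraries lay far from the others of their group. The gap to the nearest library, as a share of the group's range, was past Dixon's 95% critical value in 19 of 200 groups, 15 of them with a high library. These are the tissue and treatment groups of RRM2B and of the member of each role with the smallest p in CHT aorta; the other members were not screened. Chance flags about 1 in 20 groups of normally distributed values. The CPM screened were not transformed, so the number that chance flags here is not known. GINS4 had 0.329 CPM in Ctrl aorta library L569 (the nearest other at 0.0546 CPM) and 0.431 CPM in Lard aorta library L575 (the nearest other at 0.105 CPM). MCM10 stood at 1.15 CPM in Ctrl aorta library L569 (the nearest other at 0.224 CPM), 2.72 CPM in IR/CHT aortic valve library L178 (the nearest other at 4.77 CPM) and 1.91 CPM in IR/CHT tricuspid valve library L276 (the nearest other at 0.682 CPM). ORC6 was at 3.32 CPM in CHT aorta library L572 (the nearest other at 1.7 CPM) and 4.43 CPM in IR/CHT mitral valve library L237 (the nearest other at 2.43 CPM). POLA1 was as low as 35.2 CPM in Ctrl aorta library L552 (the nearest other at 46.4 CPM) and 51.2 CPM in IR/CHT pulmonary valve library L275 (the nearest other at 65.4 CPM). POLD2 had 12.5 CPM in Ctrl mitral valve library L262 (the nearest other at 8.53 CPM), 11.4 CPM in IR/CHT pulmonary valve library L275 (the nearest other at 5.86 CPM) and 15.2 CPM in Ctrl tricuspid valve library L168 (the nearest other at 5.8 CPM). POLE stood at 5.11 CPM in Ctrl aortic valve library L150 (the nearest other at 2.76 CPM) and 36.6 CPM in IR/CHT aortic valve library L194 (the nearest other at 23.8 CPM). RRM2 was at 3.84 CPM in Ctrl aorta library L569 (the nearest other at 0.683 CPM), 3.04 CPM in Lard aorta library L562 (the nearest other at 1.45 CPM), 2.73 CPM in Lard aortic valve library L232 (the nearest other at 1.06 CPM) and 3.12 CPM in Lard pulmonary valve library L271 (the nearest other at 1.28 CPM). RRM2B was as low as 18.3 CPM in Ctrl tricuspid valve library L168 (the nearest other at 30.4 CPM).

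The tests of a difference in response between 2 tissues, in log2 units, gave the following values past an adjusted p of 0.05 (edgeR's interaction test, Benjamini-Hochberg adjustment). For CHT vs Ctrl, aortic valve against aorta, they were GINS4 (-3.35), MCM2 (-1.32) and MCM5 (-1.67). Those for CHT vs Ctrl, pulmonary valve against aortic valve were MCM10 (-2.70), MCM3 (-0.97), MCM4 (-2.03), POLE (-2.10) and RRM2 (-3.58). The members past it for CHT vs Ctrl, tricuspid valve against mitral valve were MCM4 (-1.28), POLE (-1.83) and RRM2 (-2.18). For IR/CHT vs CHT, pulmonary valve against aortic valve, they were RFC1 (-0.78). Those for IR/CHT vs Ctrl, aortic valve against aorta were MCM3 (0.82), MCM5 (-1.50) and RFC1 (0.88). The members past it for IR/CHT vs Ctrl, mitral valve against aortic valve were MCM10 (-1.92), MCM3 (-1.08), MCM4 (-1.54), POLE (-1.20), RFC1 (-0.88), RRM2 (-2.71) and RRM2B (-0.73). For IR/CHT vs Ctrl, pulmonary valve against aortic valve, they were MCM10 (-3.46), MCM2 (-1.53), MCM3 (-1.74), MCM4 (-2.63), MCM7 (-0.59), ORC1 (-2.48), ORC6 (-1.73), POLD3 (-0.51), POLE (-2.99), PRIM2 (-0.61), RFC1 (-1.38), RFC5 (-0.93), RRM1 (-0.95) and RRM2 (-4.20). Those for IR/CHT vs Ctrl, tricuspid valve against mitral valve were MCM10 (-1.77), MCM2 (-1.08), MCM4 (-1.73), ORC1 (-1.47), POLE (-2.09), RFC1 (-0.50) and RRM2 (-2.21). A negative value means a smaller response in the tissue named first. No cause of any of these differences was tested.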

How the results depend on the processing

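No alternative turned the direction of a log2 value of a called member; values of genes that were not called and of the partner genes were not recomputed. Of the log2 values of called members, 2934 alternative values kept their call and the rest lost it. With only the groups compared in the fit, CHT aortic valve had 5 members called. Without the filter on low counts there were 3 for IR/CHT against CHT in the aortic valve, 1 for Ctrl mitral against aortic valve, 1 for the CHT response of aortic valve against aorta, 2 for the IR/CHT against CHT response of pulmonary against aortic valve and 3 for the IR/CHT response of tricuspid against mitral valve. Plate 2 alone gave 3 for IR/CHT mitral valve. In Lard aorta, 1 fit of all 5 tissues gave 3 and DESeq2 2, and DESeq2 gave 1 in Lard aortic valve. DESeq2's size factors gave 2 for the IR/CHT against CHT response of pulmonary against aortic valve.

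For differences between tissues in Ctrl, the rabbit was added as a block to a fit of the Ctrl libraries alone, which changes both choices and tests fewer members. It gave 3 for aortic valve against aorta, 1 for mitral against aortic valve and 4 for tricuspid against mitral valve, and the same libraries without the block, an alternative chosen after seeing the data, gave 4, 0 and 0. For responses, with all libraries kept, the block gave 4 and 12 for the CHT and IR/CHT responses of mitral against aortic valve and 9 for the CHT response of pulmonary against aortic valve. The block moved no other count by more than 1.5 times. The cause of these changes was not tested.

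Leaving out 1 library at a time gave 3 to 6 for IR/CHT against CHT in the aortic valve, 0 to 1 for the same in the mitral valve, 0 to 2 for Lard aorta, 1 to 6 for Ctrl mitral against aortic valve and 0 to 4 for Ctrl tricuspid against mitral valve. For differences in response it gave 0 to 3 (CHT, aortic valve against aorta), 1 to 3 (CHT, tricuspid against mitral valve), 1 to 2 (IR/CHT against CHT, pulmonary against aortic valve), 3 to 5 (IR/CHT, aortic valve against aorta), 6 to 11 (IR/CHT, mitral against aortic valve) and 3 to 8 (IR/CHT, tricuspid against mitral valve). Depth limits GINS4, POLE2 and MCM10, whose Ctrl libraries often held few or no read pairs.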
